A study of Mus musculus with 6 samples.

Results

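A total of 1882 of the 34673 peaks in the list of H3K9me3 sites present in WT but absent in mutant Bergmann glia (BG) lay in introns, outside annotated repeats and CpG islands, and more than 50 kb from the nearest transcription start site (TSS). They made up 5.43% of the list (95% Wilson interval 5.19 to 5.67%). Members were taken by the annotation deposited with each peak. The class began with intron, the detailed annotation named neither a repeat nor a CpG island, and the distance to the TSS exceeded 50 kb in either direction. Peak scores played no part in that choice. Sequence did so through the repeat and CpG island annotation, which kept out peaks centred on either. The windows used for comparison below were not filtered for CpG islands. Those 5 and 20 kb to either side of members were not filtered for repeats, exons or introns either. Bases masked as repeats averaged 23.5% in those 5 kb away, 23.9% in those 20 kb away and 13.5% in members.

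BG are the radial astroglia of the cerebellar cortex, along whose fibres granule cells migrate. The libraries were made from BG of C57BL/6 mice at postnatal day 10, and comprised 2 mutant, 2 WT and 2 control libraries. In the mutant, according to the study's methods, mGFAP-Cre deleted a floxed Setdb1 gene in cerebellar neural cells other than Purkinje cells, so that cell types besides BG lost Setdb1 as well. In that study BG of the first postnatal weeks were sorted by GFP from a Nestin promoter. Reporter mice with tdTomato after Mash1-driven recombination served for young adults. For its RNA sequencing at postnatal day 10, control BG came from the GFP mice and mutant BG from Setdb1-deleted mice with the same reporter. Its ChIP method refers to the isolation of BG without naming the line. The control labels name both input and IgG and give no genotype, and nothing says whether libraries of a genotype came from separate animals. The study's methods and its list of reagents name different H3K9me3 antibodies. The deposited table holds a single pooled value per peak, so depth per library, a spread between replicates and a test of WT against mutant could not be had. The heading of the table can be read as setting WT against input, mutant or both. Markers of BG cannot be checked in a list of peaks.

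H3K9me3 marks silent chromatin. Setdb1 is a methyltransferase that places it on retroelements and on some genes, usually after recruitment through Trim28 and KRAB zinc finger proteins. Introns of long genes are mostly neither promoter nor exon, and much of their length is remnants of transposons. Nfix, the transcription factor to which the study ties Setdb1, belongs to the nuclear factor I family. Members of that family bind TTGGC and its reverse complement GCCAA, and TTGGCA is a common form of one arm of the motif.

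The sequences below show what such a peak looks like. Each run is the central 300 bases of a peak on the + strand of mm10 (GRCm38), read from the RefSeq copy of that assembly, and capitals mark TTGGCA or its reverse complement. The first 4 are from the members with the highest scores among those with a single alignment in the genome. Cdh23, a cadherin of the tip links of hair cells, held the first at chr10:60629496-60629795 in intron 4 of 68 (score 43.6). The second, in A530065N20Rik, lay at chr13:60089327-60089626 in intron 1 of 2 (score 33.4). Col13a1, which encodes a transmembrane collagen, held the third at chr10:61855189-61855488 in intron 32 of 37 (score 29.5). Ntn1, which encodes the guidance cue netrin-1, held the last at chr11:68313155-68313454 in intron 2 of 6 (score 27.9). These are unrelated stretches of moderate G+C, and 2 of the 4 have no match to it.
Cdh23 intron 4: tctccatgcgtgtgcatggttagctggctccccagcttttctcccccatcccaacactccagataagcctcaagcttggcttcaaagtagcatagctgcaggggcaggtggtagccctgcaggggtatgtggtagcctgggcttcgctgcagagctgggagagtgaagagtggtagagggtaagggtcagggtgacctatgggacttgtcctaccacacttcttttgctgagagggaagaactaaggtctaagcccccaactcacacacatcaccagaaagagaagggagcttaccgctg
A530065N20Rik intron 1: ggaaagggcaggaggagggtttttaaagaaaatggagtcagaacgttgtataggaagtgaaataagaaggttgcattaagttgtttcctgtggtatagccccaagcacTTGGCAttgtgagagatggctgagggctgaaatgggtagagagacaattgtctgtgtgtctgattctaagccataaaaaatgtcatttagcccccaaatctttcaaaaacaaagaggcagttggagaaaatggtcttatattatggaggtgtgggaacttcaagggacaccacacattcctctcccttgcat
Col13a1 intron 32: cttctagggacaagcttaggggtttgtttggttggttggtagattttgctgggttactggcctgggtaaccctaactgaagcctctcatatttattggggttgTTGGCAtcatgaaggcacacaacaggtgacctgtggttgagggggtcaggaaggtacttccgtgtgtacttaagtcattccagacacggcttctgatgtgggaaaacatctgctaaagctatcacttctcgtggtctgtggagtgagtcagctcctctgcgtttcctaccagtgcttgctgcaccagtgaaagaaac
Ntn1 intron 2: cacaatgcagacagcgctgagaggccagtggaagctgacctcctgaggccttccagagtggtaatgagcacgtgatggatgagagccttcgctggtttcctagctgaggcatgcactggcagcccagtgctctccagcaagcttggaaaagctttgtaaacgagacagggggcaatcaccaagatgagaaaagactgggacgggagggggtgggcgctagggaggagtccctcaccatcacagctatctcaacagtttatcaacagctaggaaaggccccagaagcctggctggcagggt

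Other members carried an extreme of one feature. The member with most TTGGCA matches lay in Sdk1, a synaptic adhesion molecule of the immunoglobulin superfamily, at chr5:142005595-142005894 in intron 16 of 44 (score 8.66). Its central 500 bases held 12 matches, 9 of them in the run below, and the copies recur because the window is a tandem array with a period of 32 bases. Srrm4, a splicing regulator of neurons, held the member with most CpG dinucleotides, at chr5:116510875-116511174 in intron 1 of 12 (score 8.34), and capitals in its run mark CG. The array in Runx1 at chr16:92774253-92774552, in intron 2 of 6 (score 18.9), was the highest-scoring array of which under 10% was masked in the reference and which had a single alignment. It was chosen after its values were seen, and its capitals mark every other unit of 39 bases. TTGGC and GCCAA 5 bases apart, the full palindromic site, occurred in 2 members (0.106%). It occurred in 1 of 3764 windows 5 kb to either side of members (0.027%). Of 53458 windows sampled from unmasked intron sequence over 50 kb from a TSS, 11 held it (0.021%). Among intron peaks outside repeats within 50 kb of a TSS, 3 of 4689 did. The site in Frmd5 is shown at chr2:121594328-121594362 in intron 1 of 13 (score 5.78), with both arms in capitals. The other lay in Gm21119, in sequence with 12 alignments in the genome.
Sdk1 intron 16: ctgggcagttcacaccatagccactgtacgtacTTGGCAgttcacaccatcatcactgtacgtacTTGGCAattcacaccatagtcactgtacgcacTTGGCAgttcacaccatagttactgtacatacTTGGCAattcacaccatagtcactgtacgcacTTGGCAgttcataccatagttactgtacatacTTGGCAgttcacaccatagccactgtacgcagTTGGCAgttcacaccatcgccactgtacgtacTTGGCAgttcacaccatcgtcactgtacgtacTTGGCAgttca
Srrm4 intron 1: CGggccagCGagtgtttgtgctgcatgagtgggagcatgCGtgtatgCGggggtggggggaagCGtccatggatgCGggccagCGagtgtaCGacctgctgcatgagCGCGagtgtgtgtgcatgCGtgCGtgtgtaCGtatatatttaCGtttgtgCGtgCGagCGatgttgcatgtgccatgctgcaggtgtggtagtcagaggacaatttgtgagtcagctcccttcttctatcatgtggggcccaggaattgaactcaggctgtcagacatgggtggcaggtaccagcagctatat
Runx1 intron 2: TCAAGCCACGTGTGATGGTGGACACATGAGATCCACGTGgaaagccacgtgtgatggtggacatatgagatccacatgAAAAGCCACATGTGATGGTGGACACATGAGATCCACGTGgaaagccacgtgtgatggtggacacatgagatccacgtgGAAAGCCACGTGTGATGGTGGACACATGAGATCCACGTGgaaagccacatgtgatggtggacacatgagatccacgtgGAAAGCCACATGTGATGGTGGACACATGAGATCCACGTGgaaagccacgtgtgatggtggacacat
Frmd5 intron 1: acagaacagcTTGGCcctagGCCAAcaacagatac

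Members scored at or a little below the middle of the list. Their score, the value that the peak caller wrote and whose scale the sources do not state, had a median of 6.74 (interval from order statistics 6.74 to 7.06) and ran from 4.81 to 46.5. The median was 6.74 as well for intron peaks outside repeats within 50 kb of a TSS (n = 4693) and for intergenic peaks outside repeats over 50 kb away (n = 3267). It was 7.06 for repeat-centred intron peaks over 50 kb away (n = 1839) and for all other peaks of the list. A score of 10 or more was reached by 186 members (9.88%, 8.62 to 11.3%), against 15.2% of repeat-centred intron peaks at that distance, a difference of -5.34 percentage points (Newcombe interval -7.48 to -3.22). Against near introns the difference was -0.451 points (-2.01 to 1.21). Most members, 79.4%, had the width of 500 bases, and 46 were wider than 1 kb, the widest being 2489 bases. All intervals in the text cover counting error only and treat peaks as independent, which neighbouring peaks are not.

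**Figure D1:**
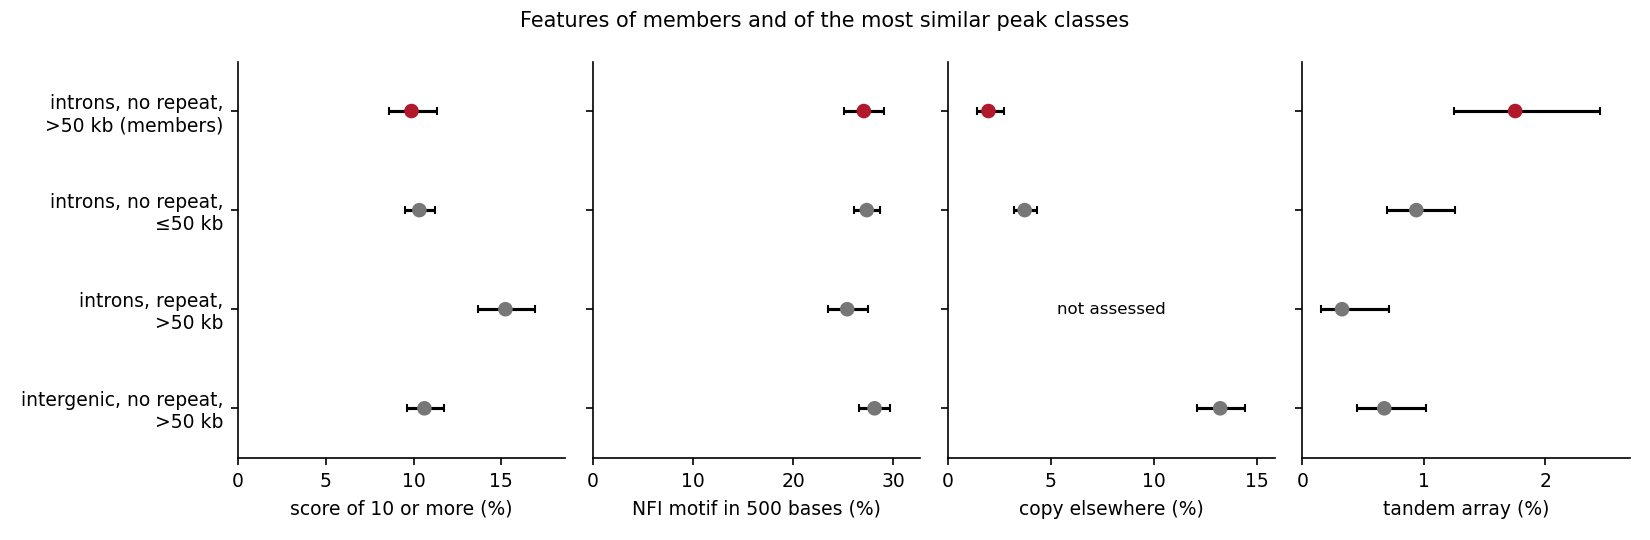
Share of peaks with each of 4 features (x axes, %) in the members (red, top row) and in the 3 most similar classes of the list (grey), with 95% Wilson intervals as bars. Members were near 10% for high scores and 27% for the NFI motif, like the other classes outside repeats, and lay at 1.98% for a copy elsewhere and 1.75% for tandem arrays.

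Close to the distance threshold, peaks on either side were similar in score and G+C. The 326 members at 50 to 60 kb had a median score of 7.06 and a mean G+C of 50.7%, and the 426 intron peaks outside repeats at 40 to 50 kb, just outside the rule, had 6.74 and 50.9%. TTGGCA was present in 25.8% and 28.4% of them. Copies and tandem arrays were not compared at the threshold. Members lay up to 978 kb from the nearest TSS, with a median of 89.5 kb.

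Members were richer in G+C than the sequence around them. The central 500 bases averaged 50.1% G+C, against 45.1% in windows 5 kb to either side, 44.9% in windows 20 kb away and 41.0% over a grid of 53458 windows that sampled every 5 kb of unmasked intron sequence over 50 kb from a TSS. The paired difference from the windows at 5 kb was 5.02 percentage points (interval 4.80 to 5.25), and 1617 of 1882 members (85.9%) were richer in G+C than their own surroundings. CpG dinucleotides were more frequent too, at 1.47 per 100 bases in members, 1.07 in windows 5 kb away and 0.768 over the grid. Other classes of peak shared the composition. G+C averaged 51.2% in near introns, 48.2% in repeat-centred introns and 49.1% in intergenic peaks outside repeats.

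The number of members per megabase rose steeply with the G+C of the sequence. Sequence under 36% G+C amounted to 55.7 Mb and held 2 members, or 0.0359 per Mb (exact Poisson interval 0.00435 to 0.130). At 40 to 44% G+C the density was 0.958 per Mb, at 44 to 48% it was 8.10, and at 48 to 52% it was 32.4. The bin of 48 to 52% held 828 members (44%) but only 9.55% of the grid. The density reached 58.3 per Mb (53.2 to 63.6) at 52 to 56% G+C and was 57.0 (45.4 to 70.7) above that, so it was no higher in the richest sequence. Coverage per library was not analysed here, and the part that sequencing or recovery of fragments by G+C took in this was not tested.

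**Figure D2:**
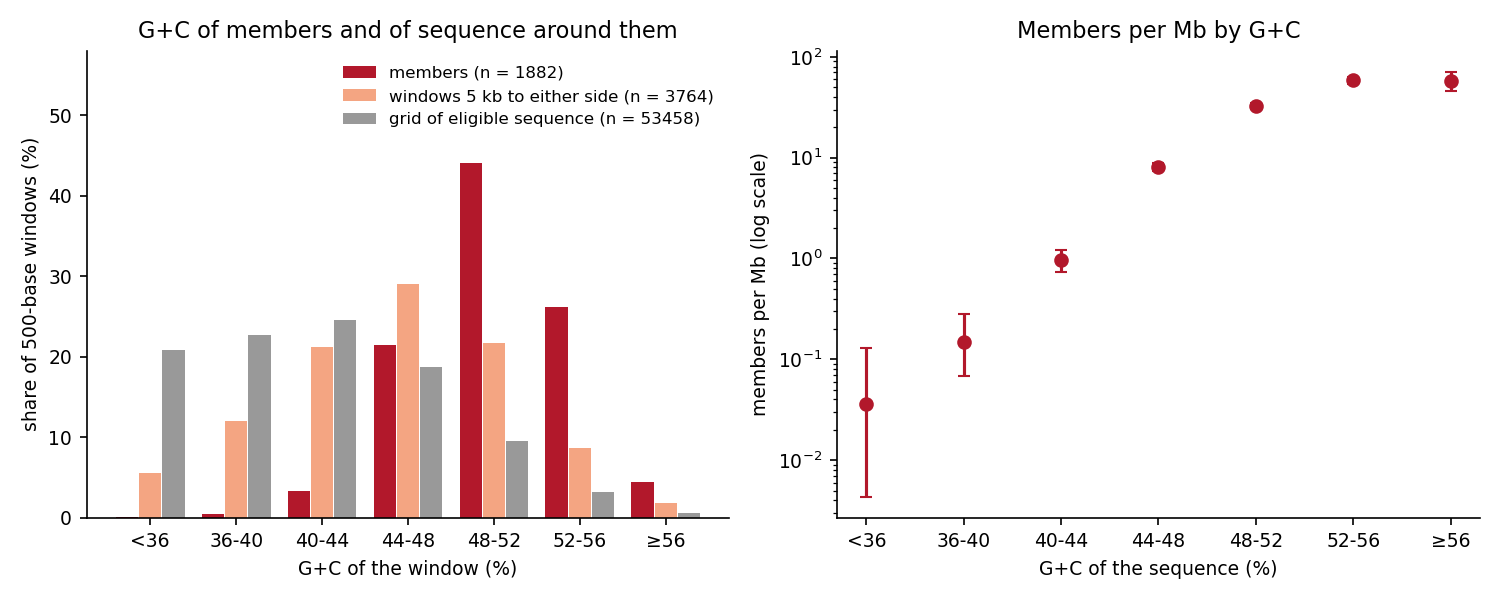
Left, share of 500-base windows (y axis, %) in bins of G+C (x axis, %) for members, windows 5 kb to either side and the grid of eligible sequence. Right, members per Mb of sequence (log y axis) in the same bins, with exact Poisson intervals. The members peak at 48 to 52% while the grid peaks at 40 to 44%, and density climbs from 0.0359 to 58.3 per Mb.

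Members numbered 7.04 per Mb (6.72 to 7.36) of the 267.5 Mb of unmasked intron sequence over 50 kb from a TSS. The value was 11.3 per Mb in introns within 50 kb and 5.90 per Mb in intergenic sequence at the same distance. All 1882 members were counted, although some lay outside that sequence. The centre was masked in 165 of them, and 1778 were over 50 kb from a TSS in RefSeq. Within the members' own territory density fell with distance, at 9.67 per Mb between 50 and 75 kb, 8.79 to 100 kb, 6.49 to 200 kb, 4.55 to 400 kb and 2.11 beyond that. The G+C of the sequence fell with it, at 42.4% in the nearest bin and 37.7% in the farthest. To set such values beside composition, the rate of members in each 2-point bin of G+C was applied to any stretch of sequence, which gives a count expected from its G+C. Members came to 0.979 times that count in the nearest bin (0.907 to 1.06) and 0.848 times in the farthest (0.606 to 1.15), so the decline with distance was no longer seen.

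Chromosomes differed in density, in part along with their G+C. Density on autosomes ran from 4.83 per Mb on chromosome 3, where the eligible sequence had 39.8% G+C, to 11.98 on chromosome 11, with 43.3%. Relative to the count given by G+C, chromosome 3 stood at 1.02 and chromosome 11 at 1.01, and the median of the 19 autosomes was 1.01. The interval of the ratio left out 1 on 5 autosomes. It lay above 1 on chromosome 5 (1.21, 1.04 to 1.40), chromosome 8 (1.24, 1.03 to 1.47) and chromosome 19 (1.49, 1.15 to 1.90). It lay below 1 on chromosome 2 (0.819, 0.672 to 0.989) and chromosome 4 (0.745, 0.606 to 0.906). The X chromosome held 7 members, or 0.650 per Mb, which was 0.409 times the count given by its G+C (0.164 to 0.843). No member lay on the Y chromosome. The sex of the animals behind each library is not given in the labels, and its part in the value on X was not tested.

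The NFI motif TTGGCA, searched on both strands, was present in 509 members (27.05%, 25.1 to 29.1%). It was present in 22.8% of windows 5 kb away, a difference of 4.28 points (1.89 to 6.71), and in 25.05% of windows 20 kb away, where the difference was 1.99 points with an interval that included 0 (-0.420 to 4.45). Over the grid it was present in 24.4%, a difference of 2.69 points (0.696 to 4.77), which narrowed to 1.33 points when the grid was weighted to the members' G+C. Both comparisons with the grid were chosen after the data were seen. The other classes of peak were like the members, with 27.3% in near introns (difference -0.295 points, -2.64 to 2.11), 25.4% in repeat-centred introns and 28.1% in intergenic peaks outside repeats. A single match was found in 416 members, 2 matches in 85 and 3 or more in 8. In bins of the members' score the share ran from 24.5 to 28.1%, with no order by score.

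Although chosen as lying outside repeats, the members were not free of repeated sequence. In the reference, 369 members (19.6%) had no soft-masked base in their central 500 bases and 1061 (56.4%) were under 10% masked, while the centre itself was masked in 165 (8.77%) and at least 50% of the window in 68. Masking in the RefSeq copy and the repeat table of the authors are different sources: of the repeat-centred intron peaks over 50 kb away, 63.2% were masked at the centre. A search for windows that match themselves after a shift of 8 to 200 bases, at 70% identity or more, was added after the array in Sdk1 had been seen. It found tandem arrays in 33 members (1.75%, 1.25 to 2.45%), against 0.266% of windows 5 kb away (difference 1.49 points, 0.938 to 2.197) and 0.224% of the sampled grid. Near introns had 0.938% (difference 0.815 points, 0.220 to 1.55) and intergenic peaks outside repeats 0.675% (1.08 points, 0.470 to 1.81). Periods ran from 12 to 152 bases with a median of 36.

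These arrays scored high for members. Their median score was 9.63, 13 of the 33 reached 10, and 27 of them were under 10% masked, so they are short-period repeats that the mask did not mark. The identities given here are those of the window to itself after the shift, so bases outside the array count too. Examples are a unit of 34 bases in Epb41l2, which links the cytoskeleton to the membrane (92.3%, score 25.4), and a unit of 39 bases in Ptprg, a receptor tyrosine phosphatase (97.6%, score 9.63). Another is a unit of 37 bases in the sialyltransferase gene St6galnac3 (98.5%, score 5.78). Nsmce2, a SUMO ligase of the SMC5/6 complex, held a pair of arrays that were 100% masked, with scores of 15.4 and 28.6. Arrays in the highest-scoring members thus included sequence with and without masking.

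Copies elsewhere in the genome were counted because the authors gave reads with several possible places a single location. A second alignment of at least 90% identity over at least 80% of the window was found for 52 of 1868 members that could be assessed (2.78%, 2.13 to 3.63%), against 4.17% of near introns and 13.4% of intergenic peaks outside repeats (difference -10.6 points, -12.0 to -9.24). For 15 of the 52, all alignments overlapped the window itself, as arrays do, which left 37 members (1.98%) with a copy in another place. Those 37 had a median score of 10.9, against 6.74 for the members without one. When the members were ordered by score into 5 groups of equal size, 23 of the 37 were in the top group and between 1 and 6 in each of the others. Snhg14 held 7 of them, Zfp982 6 and Gm21119 3. The part of read placement in these scores was not tested.

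A total of 929 genes held a member by the transcript named in the annotation, 530 of them a single member, 399 at least 2 and 71 at least 5. Those 71 genes held 519 members, 27.6% of all. Of the 3333 genes with any unmasked intron sequence over 50 kb from a RefSeq TSS, 914 held a member, which is a background of 27.4%, and protein-coding genes hosted 96.7% of the members. For 16 members the named gene did not span the peak in RefSeq, 8 of them under Zfp982, and the hosts of those are the authors' annotation only. Genes with a member often had repeat-centred peaks in their introns at the same distance: 485 hosts (52.2%) did, against 486 of the 2419 eligible genes without a member (20.1%). Hosts were longer, and length was not matched in that comparison.

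Longer genes held a member more often, and density was lowest in the group of longest genes. When eligible genes were ordered by the length of eligible sequence into 5 groups of equal size, 5.85% of genes held a member at the short end and 53.1% at the long end. Members per Mb were 14.6 and 5.42 in those groups, and G+C of the eligible sequence was 43.2 and 41.2%. Members were counted by the authors' annotation and sequence by RefSeq. Members outside the eligible sequence thus weigh most where little of it is present, and their part in these densities was not tested. Among the 100 genes with most eligible sequence (419 to 1514 kb each), 57 held a member. Ordered by G+C from low to high into 4 groups of 25, the genes with one numbered 7, 9, 16 and 25, with densities of 0.393, 0.796, 2.34 and 10.8 per Mb. Relative to the count given by G+C, those groups stood at 0.455 (0.183 to 0.938), 0.687 (0.366 to 1.18), 0.856 (0.612 to 1.17) and 1.06 (0.897 to 1.23). The group of lowest G+C therefore held fewer members than its composition gave. It includes the X-linked Dmd, Il1rapl2, Tenm1 and Diaph2, which held no member, and the X chromosome as a whole stood at 0.409. The part of the X chromosome in this value was not tested.

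The 43 very long genes without a member include several that neurons and glia use for adhesion and signalling. No member lay in Macrod2 with 1344 kb of eligible sequence, in the dystrophin gene Dmd with 1251 kb, or in Lrp1b, a lipoprotein receptor, with 1214 kb. Nor did any lie in Erbb4, a neuregulin receptor, with 687 kb. Median G+C of the eligible sequence was 37.9% in the 43 genes without a member and 42.1% in the 57 with one. The counts given by their G+C were small, at 2.06 for Lrp1b, 1.54 for Macrod2 and 1.14 for Dmd.

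**Figure D3:**
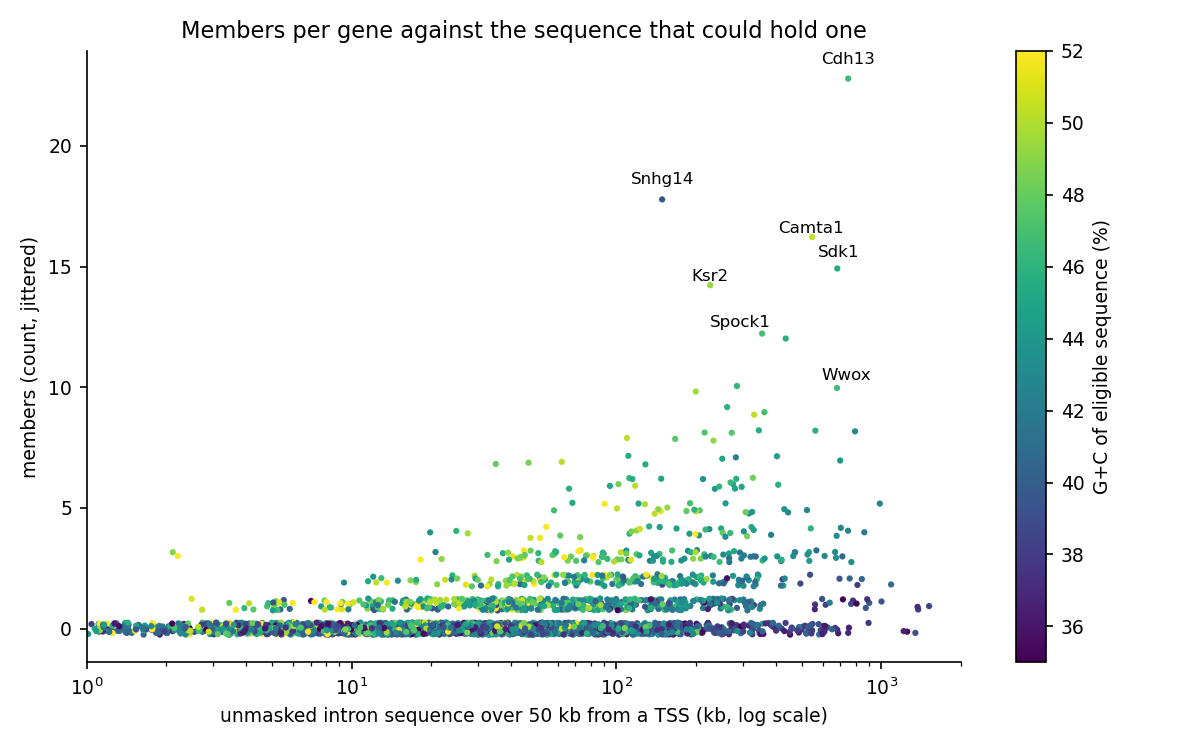
Members per gene (y axis, count with a small vertical jitter) against unmasked intron sequence over 50 kb from a TSS (x axis, kb, log scale, from 1 kb), coloured by G+C of that sequence. Apart from Snhg14, the labelled genes with most members are both long and above 45% G+C, such as Cdh13 with 23 members, while the longest genes of low G+C lie along the bottom.

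Cdh13, the gene of T-cadherin, a membrane-anchored cadherin without a cytoplasmic tail, held the most members. Its 23 members lay in 9 different introns between 118404590 and 119291229 on chromosome 8, with scores of 5.46 to 10.9 and a median of 6.42. All 23 had a single alignment, and 8 held TTGGCA. Cdh13 had 30.7 members per Mb (19.5 to 46.1), which was 1.90 times the count given by its G+C of 46.5% (1.20 to 2.85). No member of Cdh13 was among the strongest of the list, so its place rests on the number of moderate peaks. Repeat-centred peaks at the same distance numbered 12 in this gene.

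Camta1, a calmodulin-binding transcription activator, held 16 members on chromosome 4, 9 of them in intron 3. Their scores ran from 5.46 to 17.0, and the strongest, 17.0, spanned 151594240 to 151595747. With 50.5% G+C its 29.3 members per Mb were 0.834 times the count given by composition (0.477 to 1.36). Sdk1 held 15 members in 11 introns, with scores of 5.78 to 25.4 and a median of 6.74, at 1.53 times that count (0.858 to 2.53). Its highest peak lay in intron 35 and spanned 142149974 to 142151337 on chromosome 5.

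Ksr2, a scaffold of Ras to MAP kinase signalling, was denser than the other 4 genes with most members once the masked Snhg14 is set aside. It held 14 members in 225.7 kb of eligible sequence, 62.0 per Mb (33.9 to 104), or 2.07 times the count given by its 49.3% G+C (1.13 to 3.47). Scores were even, between 5.46 and 9.95. Of the remaining genes with 9 members or more, ratios above 1 with an interval that left out 1 were seen in Tmem132d (2.44, 1.26 to 4.26), St6galnac3 (2.86, 1.37 to 5.25) and Dock1, an activator of Rac (2.46, 1.12 to 4.66). Those of Spock1, a proteoglycan of the testican family (1.61), the zinc transporter gene Slc39a11 (1.43), Wwox (0.870) and Cdh4, the gene of R-cadherin (0.793), had intervals that included 1. These genes were named for their number of members, so ratios above 1 are in part a product of that choice.

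**Figure D4:**
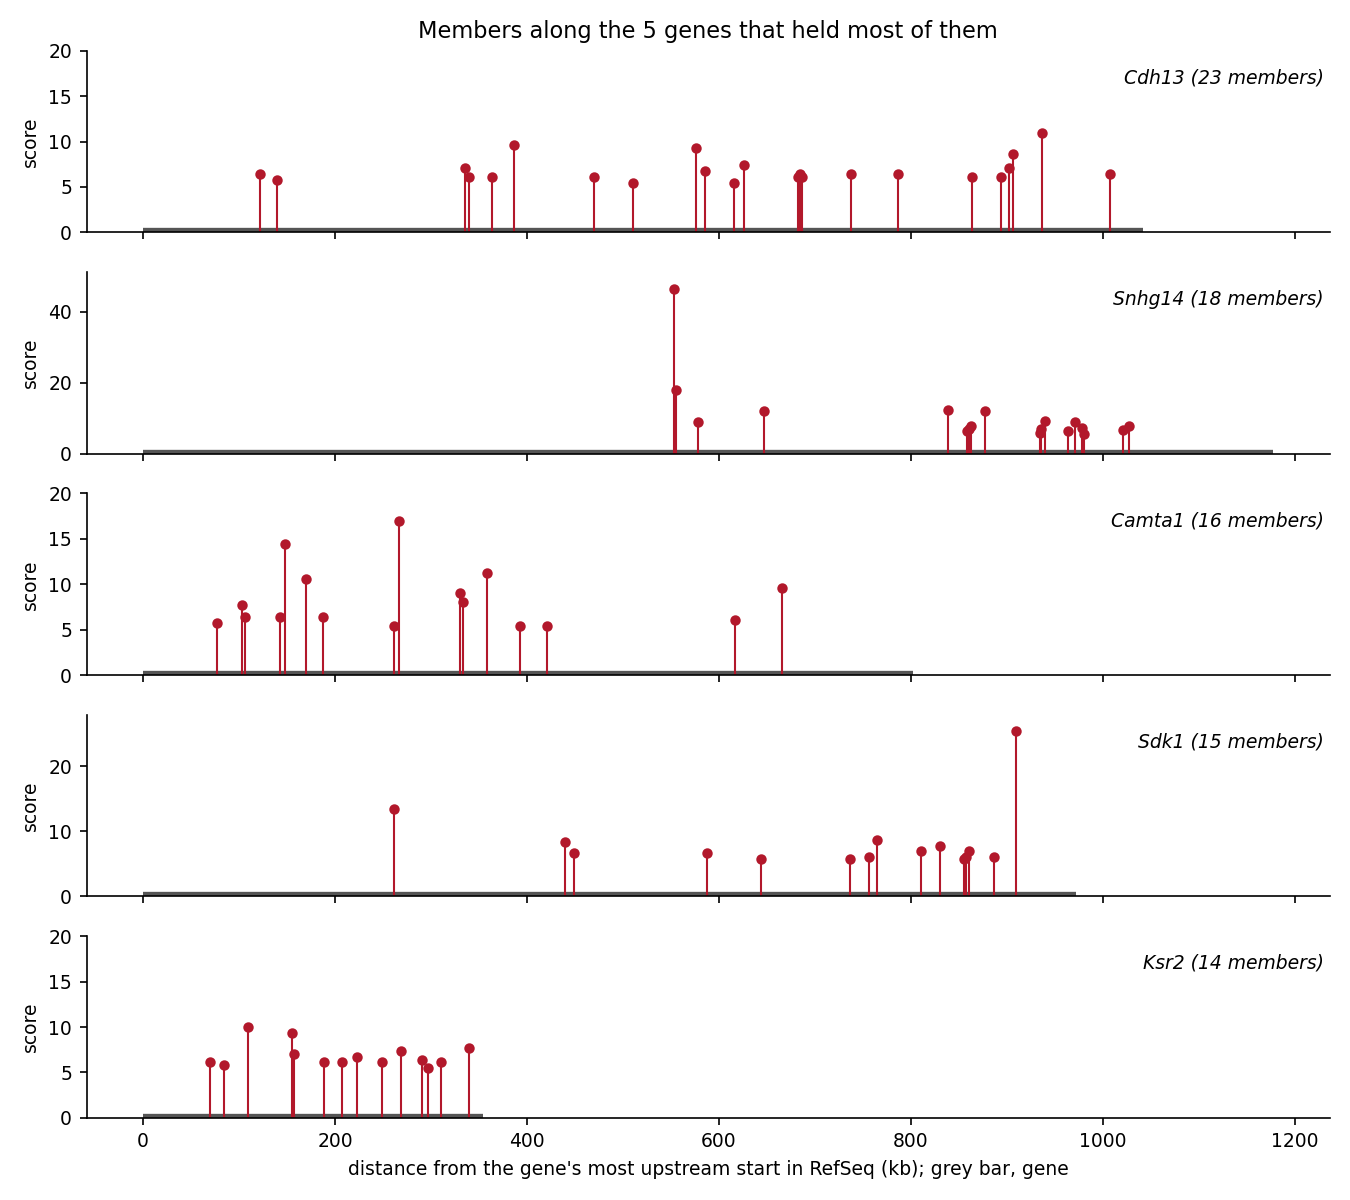
Position of each member (x axis, kb from the most upstream RefSeq start, with the gene as a grey bar) and its score (y axis, own scale per gene) in Cdh13, Snhg14, Camta1, Sdk1 and Ksr2. Members of Cdh13 spread over the gene at scores up to 10.9, while Snhg14 has its highest, 46.5, beside others below 20.

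Snhg14, the long RNA that hosts tandem small nucleolar RNAs between Snrpn and Ube3a in an imprinted region, differed from the other genes with many members. Its 18 members lay between 59422636 and 59897952 on chromosome 7 with scores of 5.46 to 46.5 and a median of 7.70. In 17 of the 18 at least 50% of the window was masked, and masking had a median of 92.1%. The 2 strongest, 46.5 and 18, had 67 and 55 alignments in the genome, and 8 members were too heavily masked to assess. TTGGCA was present in 15 of the 18, and without this gene 494 of 1864 members (26.5%) held it. In RefSeq 9 of the 18 met the rule on distance and intron. Its density of 121 per Mb counts only unmasked sequence, of which little is left, and is not comparable with that of other genes.

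Other high scores lay in a few genes. Cdh23 had scores of 43.6 and 26 at its 2 strongest members, with 1 alignment each, among 5 members with a median of 7.38. Zfp982, a zinc finger gene of a multicopy cluster on chromosome 4, had 41.7 and 35.3 at its 2 strongest, with 11 and 17 alignments, and then 24.4, 19.6 and 18.3 among 8 members with a median of 18.9. The lowest of the 8 scored 6.10. Tmem266 had 26 at its only member. Col13a1 held 3 members, of which the others scored 6.42 and 9.31, and Ntn1 held 2, at 6.74 and 27.9. High scores therefore fell both in sequence present once and in sequence present many times.

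By density per gene with at least 4 members the order was Cdyl2, a chromodomain protein, at 202 per Mb with 4 members, Pitpnc1, a phosphatidylinositol transfer protein, at 199.8 with 7, Runx1 at 161 with 4, Adamts2, a procollagen protease, at 150.3 with 7, and Trerf1 at 146 with 4. All 5 rest on small denominators, from 19.8 kb of eligible sequence in Cdyl2 to 46.6 kb in Adamts2, with 27.4 kb in Trerf1. The ratio of Trerf1 to the count given by G+C was 3.28 (0.895 to 8.41). For the first 4, RefSeq has TSSs that the authors' annotation lacks. Members that met the rule in RefSeq numbered 0 in Cdyl2, 0 in Pitpnc1, 1 in Runx1 and 2 in Adamts2, and all 4 in Trerf1. Across the list 94.5% of members were over 50 kb from a TSS in RefSeq and 99.2% were in an intron.

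Within genes, members were nearer to exons than the sequence at large. The median distance to an exon edge was 7.02 kb, against 11.1 kb over the grid, and 19.8% lay within 1 kb of an edge, against 13.7% of the grid. The grid was not matched to the members in G+C or in distance to a TSS, of which the median was 113.8 kb against 89.5 kb. Intron 1 held 267 members (14.2%) and the last intron 158 (8.40%). How much of the eligible sequence lies in first or last introns was not counted, so these shares have no background. For 779 of 1876 members (41.5%) the nearest TSS belonged to a gene other than the host, so assigning these peaks by nearest TSS names another gene. In Cdh13 that was true of 15 of 23 members, and in Camta1 of 4 of 16.

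Most members had no other peak of the list within 10 kb. Another member lay within 10 kb of 379 (20.1%, 18.4 to 22.0%), near the 20.5% of near intron peaks that had one of their class and the 18.9% of intergenic ones. Any other peak of the list lay within 10 kb of 32.5%, and a repeat-centred peak within 10 kb of 14.3%. At 20 kb, 53.2% of members had another peak of the list, as had 56.8% of near intron peaks and 55.4% of intergenic ones. Joined at 10 kb, the members formed 1503 single peaks, 158 pairs, 17 runs of 3 and 3 runs of 4, the last in Cit, Snhg14 and Tshz2.

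The gene lists that follow were fixed by function. In all of them but the silencing machinery, median eligible sequence per gene was above the 34.85 kb of all genes. The share of genes with a member rose with that length, and the lists were not matched for it. Genes of the extracellular matrix and its receptors, with which the study was concerned, held a member in 18 of 51 cases with eligible sequence. That was 35.3% (23.6 to 49.0%), an interval that included the 27.4% of all genes, at a median eligible length of 49.3 kb. Their 35 members gave 8.93 per Mb, beside 6.89 for all genes. Relative to G+C this was 0.971 (0.677 to 1.35). The leading ones were Col23a1, a transmembrane collagen, with 5 members scored 5.46 to 7.70, Itga9, an integrin subunit, with 4 scored 5.78 to 9.63, and Col13a1 with 3. None of the 4 in Itga9 met the rule in RefSeq. Lama1, the laminin alpha 1 chain, held 2 members, at 5.78 and 6.10. Heparan sulphate proteoglycans and their enzymes held members in 7 of 16 genes (43.75%), with 3 each in Ext1, Gpc6 and Hs6st3. Their density was 4.79 per Mb, or 1.62 times the count given by G+C (0.928 to 2.63).

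Adhesion molecules of neurons were sparse per megabase. They held a member in 18 of 45 genes, and their 53 members gave 2.76 per Mb, the lowest of the large lists, in sequence of 39.5% G+C. Relative to that composition they stood at 0.805 (0.603 to 1.05). Sdk1 with 15, its relative Sdk2 with 5 and Ntm, a GPI-anchored adhesion molecule, with 4 led this list. Cadherins and non-clustered protocadherins held members in 7 of 26 genes (26.9%, near the share of all genes). Of their 43 members, 37 were in Cdh13, Cdh4 and Cdh23. Axon guidance genes held members in 14 of 33 (42.4%, 27.2 to 59.2%), led by the secreted Slit3 with 9 and the receptor Ephb2 with 5, all in its intron 3. Receptor tyrosine phosphatases held them in 6 of 15, led by Ptprn2 with 6 and Ptprg with 5.

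In lists of channels and receptors, the shares of genes with a member had wide intervals that overlapped. Voltage-gated channel genes held a member in 23 of 52 (44.2%, 31.6 to 57.7%). They were at 6.32 per Mb or 0.757 times the count given by G+C (0.541 to 1.03), led by Cacna1c with 5, 1 of which scored 20.9. Glutamate receptor genes held members in 7 of 19 (36.8%, 19.15 to 59.0%) at 3.63 per Mb (0.661 times, 0.398 to 1.03). They were led by the kainate receptor subunits Grik4 with 5 and Grik3 with 4. GABA and glycine receptor genes held 7 members in 3 of 15 (a share below the 27.4% of all genes), of which Gabbr2 had 5. Genes of cyclic nucleotide and calcium signalling held members in 16 of 36 (44.4%, 29.5 to 60.4%). They were led by Prkce with 8 and Pde8b, a cyclic AMP phosphodiesterase, with 6 scored 7.06 to 9.95.

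Transcription factors of long genes were near all genes in density, at 7.42 per Mb and 1.02 times the count given by G+C (0.765 to 1.34). They held a member in 20 of 44 (45.5%, 31.7 to 59.9%), above the 27.4% of all genes. Their median eligible length was 119 kb, and the share was not matched for length. Rora, an orphan receptor that Purkinje cells need, held 8, all in intron 1 with scores of 5.78 to 10.6, and Auts2 held 7 and Esrrg 5. The nuclear factor I genes Nfia and Nfib had 320 and 130 kb of eligible sequence and no member, where their G+C gave 1.31 and 0.671. Tcf4, a basic helix-loop-helix factor, held 1 member, at 5.78. Nfix, Setdb1, Trim28 and Col18a1 had no eligible sequence and no member, so these peaks give no information about them. Of 4 eligible genes of the silencing machinery only Pphln1, a subunit of the HUSH complex, held a member, at 5.46, and that member did not meet the rule in RefSeq.

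Genes that BG and astroglia express held 7 members in 5 of 14 genes (35.7%, 16.3 to 61.2%, against 27.4% of all genes). Their density was 2.36 per Mb or 0.696 times the count given by G+C (0.280 to 1.43). Gpc5, a glypican, and Gria1, an AMPA receptor subunit of BG, held 2 each and Npas3 held 1. Genes of granule neurons and Purkinje cells held 16 members in 4 of 14 (28.6%, near the share of all genes), at 4.56 per Mb. They were led by Rora with 8 and Rbfox3, the gene of NeuN, with 4. The interval of each list's ratio included 1, and 2 lists differing in density were not tested against each other. Large genes at fragile sites, the longest of the lists, held members in 16 of 24 (66.7%) with 10 in Wwox and 8 in Asic2, and stood at 3.69 per Mb and 0.968 times that count (0.742 to 1.24).

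**Figure D5:**
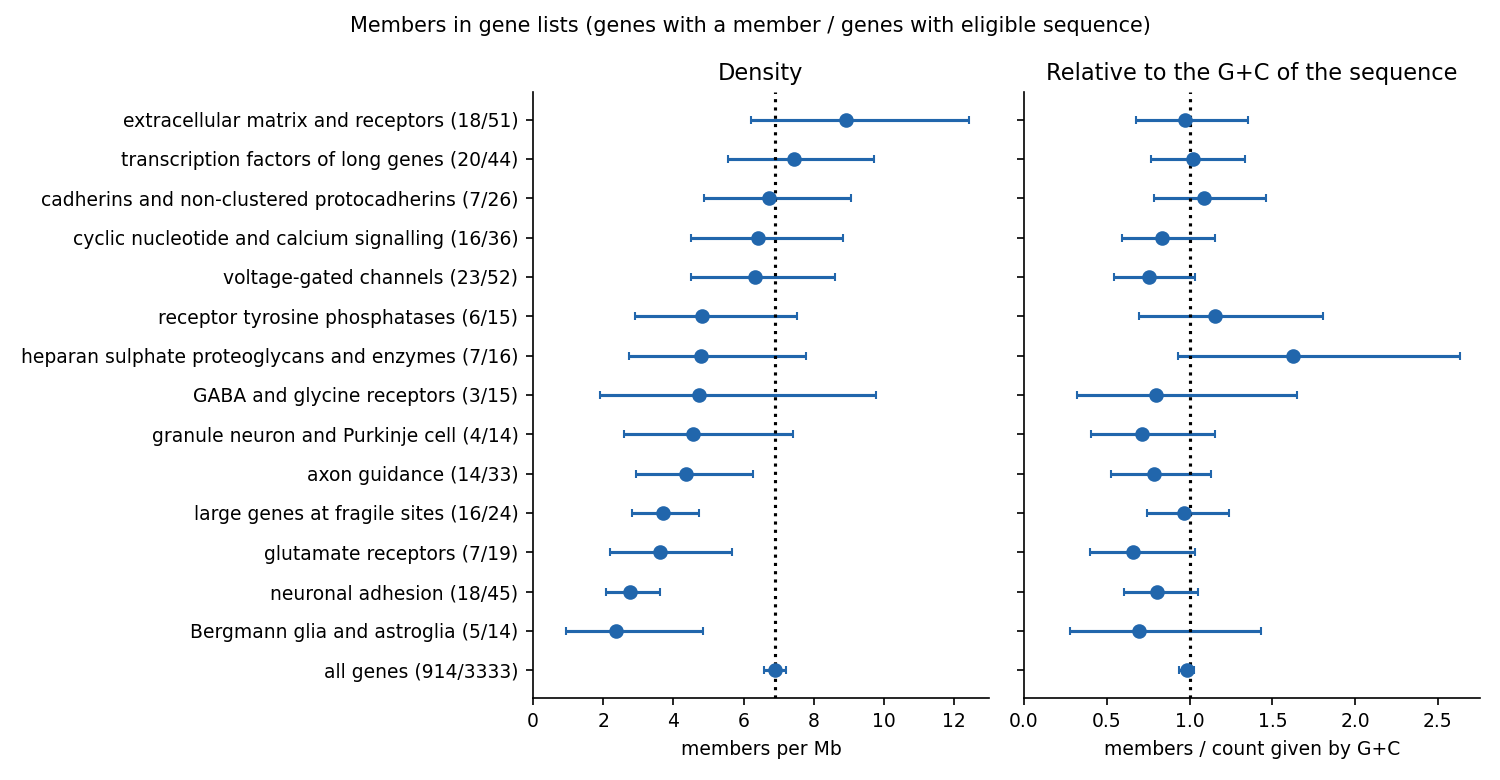
Members per Mb of eligible intron sequence (left) and members relative to the count given by the G+C of that sequence (right) for 14 gene lists and all genes (bottom row), with exact Poisson intervals. Dotted lines mark 6.89 per Mb for all genes and a ratio of 1. Lists that differ in density lie around 1 on the right, and every interval there includes 1.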

How the data were processed

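H3K9me3 ChIP-seq libraries of BG were analysed through the single table that the authors deposited. Per the labels and the study's methods, the authors aligned reads to mm10 with Bowtie2 (version 2.2.8), kept a single best location for reads that match several places, and called peaks with HOMER (version 4.10.1). Replicates were pooled, in a way that no source states. The deposited peak score is the authors' score for each peak, its scale is not stated, and no other measured column exists besides the peak's width and its distance to the nearest TSS.

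Members were selected by the authors' annotation. Sequence, soft-masking and transcripts came from RefSeq GRCm38.p6. Shares carry 95% Wilson intervals, differences of shares Newcombe intervals, medians order-statistic intervals and densities exact Poisson intervals. No p-value was computed, since the table holds no value per library. Eligible sequence was unmasked intron sequence over 50 kb from a TSS, and the grid took a 500-base window per 5 kb of it. Copies were sought with megablast (blastn 2.17.0), with masked seeds disallowed. Motif and array searches were tested on simulated data. Python 3.11.15, pandas 2.3.3, numpy 2.4.6 and scipy 1.17.1 were used.

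Genes named are the 12 with most members, the 5 with the highest density among those with at least 4 members, hosts of the 10 highest scores, the 3 with most members in each of 15 gene lists, and 8 genes that the study names or their relatives. Others were named after their values were seen. A few genes that the rule names are not reported here. Members, lists and tests were chosen with earlier results of these data known. Comparisons with the grid, ratios to the count given by G+C, array searches and copies elsewhere were added after the data were seen.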

Additional observations from a re-analysis of the deposited data

How the results depend on the processing

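No paired analysis was possible because the deposited list pools the libraries and gives no value per library, and for the same reason no replicate could be left out. Of 25 alternatives, 12 kept their value within its interval (counts within 1.5 times) and 13 moved, and no difference changed sign. The number of members was 808 with a distance above 100 kb, 3228 above 25 kb, 1189 with under 10% of the peak masked in place of the repeat annotation, and 899 with a score at or above the median of the list. The members per Mb came to 5.00 over all intron bases and 3.36 with that score limit. The G+C difference from windows 5 kb away was 5.66 points with under 10% of the peak masked. The TTGGCA difference was 1.33 points against the G+C-weighted grid, an alternative chosen after seeing the data. Hosts numbered 583 with the score limit. Members with another within 5 kb made up 10.5% and within 20 kb 34.0%. A second copy was found for 1.77% at 95% identity over 90% of the window, and for 1.98% without alignments over the window's own place, again chosen after seeing the data. Stricter limits admit fewer peaks by construction, and the cause of the other shifts was not tested. Depth per library is unknown, so faint peaks that fell below the authors' threshold are not counted.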
